A study of Canis lupus familiaris with 8 samples.

Results

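Haem oxygenase 1 (HMOX1) and NAD(P)H quinone dehydrogenase 1 (NQO1) are enzymes of the cell's defence against oxidative damage. In canine kidney cells both mRNAs were higher in hyperosmotic than in isosmotic medium, but small interfering RNAs (siRNAs) against Nfat5 were accompanied by opposite changes. HMOX1 was higher still, at 5.41-fold and 3.09-fold the hyperosmotic control with the respective Nfat5-siRNAs, and NQO1 was back at about its isosmotic level. These 2 genes of the 32704 in the count table were selected on exactly these changes, so their response to hyperosmolality and to each Nfat5-siRNA is described here without a test. The direct comparison of the Nfat5-siRNAs with each other was not part of the selection and was tested.

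HMOX1 opens the haem ring and releases biliverdin, iron and carbon monoxide. NQO1 reduces quinones to hydroquinones with NADH or NADPH, without a semiquinone radical in between. Both genes are textbook targets of the transcription factor NRF2 (gene NFE2L2), which is held back by KEAP1 until oxidants or electrophiles modify that protein, and HMOX1 is in addition repressed by the haem sensor BACH1. NFAT5 is the transcription factor through which kidney cells raise carriers and enzymes for organic osmolytes when the medium around them becomes concentrated, as it does in the renal medulla.

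RNA was sequenced from MDCK I cells, a dog kidney epithelial cell line, in 4 groups of 2 libraries, with replicate 1 at cell passage 15 and replicate 2 at passage 17 in every group. All cells, controls included, were transfected with siRNA at 100 nM. The isosmotic control below is the group Neg-siRNA (300 mOsm). The hyperosmotic control, Neg-siRNA (500 mOsm), received the same control siRNA and 24 h in medium with 200 mOsm of added raffinose. The groups Nfat5-1-siRNA (500 mOsm) and Nfat5-2-siRNA (500 mOsm) received different siRNAs against Nfat5 in the same raffinose medium. The control siRNA is directed against Slc22a6, which the labels describe as not expressed in these cells. Nfat5-siRNA at 300 mOsm and untransfected cells were not analysed here, so an effect of the Nfat5-siRNAs in isosmotic medium has no value below. Nothing in the labels says whether the groups of a passage were cultured side by side.

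The total count per library was between 34564103 and 46043788, and the 19835 genes whose counts summed to 5 or more were tested. HMOX1 and NQO1 both passed this filter. Levels are counts per 1000000 counts (CPM) scaled with TMM factors, which correct for differences in library composition and lay between 0.883 and 1.12. The 37 mitochondrially encoded genes took 5.68% and 6.52% of the counts in the isosmotic control and between 4.34% and 5.87% in the other 6 libraries, a difference in RNA make-up that moved with osmolality in part and whose bearing on HMOX1 and NQO1 was not tested. In bulk RNA, fewer expressing cells and less mRNA per cell cannot be told apart.

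The identity of the cells could be checked only in part, because most identifiers in the count table have no symbol in the sources used here. Those that have one come from a list the study drew up by significance in these same comparisons, so a change of any gene named by symbol is not independent of that choice. Most of the kidney epithelial markers listed could not be paired. CLDN1, a tight junction protein and the marker reported here, was at 205 and 131 CPM in the isosmotic control and 13.6 and 9.59 CPM in the hyperosmotic control. None of 9 leukocyte markers and 1 of 11 fibroblast and endothelial markers could be paired. That gene, the growth factor receptor PDGFRA, was at 36.6 and 31.55 CPM in the isosmotic control, 68.4 and 55.7 CPM in the hyperosmotic control, 30.7 and 33.7 CPM with Nfat5-1-siRNA and 27.8 and 34.01 CPM with Nfat5-2-siRNA. It rose with hyperosmolality by 0.86 on the log2 scale (SE 0.17, edgeR, adjusted p = 0.0135) and fell by 0.94 (SE 0.17, adjusted p = 0.0182) and 1.00 (SE 0.17, adjusted p = 0.00817) with the siRNAs, the same directions as NQO1. These calls were lost on leaving out some libraries, with hyperosmotic control replicate 1 among them in all 3 comparisons (edgeR, adjusted p up to 0.301, 0.297 and 0.215). All libraries came from a cultured epithelial cell line and not from tissue, so PDGFRA does not by itself show fibroblasts in them. The presence of other cell types was not tested.

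Symbols for the targets of the siRNAs, NFAT5 and SLC22A6, could not be paired with an identifier either, so the knockdown itself was not checked on the counts. The Nfat5-siRNA groups are named by their labels, and no lower level of the target mRNA is shown for them here. The osmotic labels were set beside AKR1B1, the aldose reductase that makes the osmolyte sorbitol. It was at 18.0 and 22.6 CPM in the isosmotic control and at 1116 and 1186 CPM in the hyperosmotic control. With Nfat5-1-siRNA AKR1B1 was at 319.5 and 178 CPM, and with Nfat5-2-siRNA at 276 and 259 CPM. The libraries thus differed as labelled by osmolality for a gene chosen on that difference, and both Nfat5-siRNA groups lay between the controls for this gene.

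HMOX1 (ENSCAFG00000001711) lies on chromosome 10 of CanFam3.1 from 28743753 to 28752012 on the reverse strand. Its model in the count table has 5 exons with 1986 bases in all, none of them shared with another gene. The raw counts of replicates 1 and 2 were 399 and 262 in the isosmotic control, 1947 and 2122 in the hyperosmotic control, 13494 and 13328 in Nfat5-1-siRNA and 7086 and 6705 in Nfat5-2-siRNA. Counting error is therefore small beside the differences between the groups.

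In the same order of replicates, HMOX1 was at 8.98 and 7.76 CPM in the isosmotic control and at 52.8 and 53.1 CPM in the hyperosmotic control. It was at 289.9 and 283.6 CPM with Nfat5-1-siRNA and at 168.6 and 158.8 CPM with Nfat5-2-siRNA. No group overlapped with another, and the order from low to high was the isosmotic control, the hyperosmotic control, Nfat5-2-siRNA and Nfat5-1-siRNA at both passages. The group means were 8.36 ± 0.862, 53.0 ± 0.217, 164 ± 6.94 and 287 ± 4.42 CPM in that order (SD, n = 2 each).

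**Figure D1:**
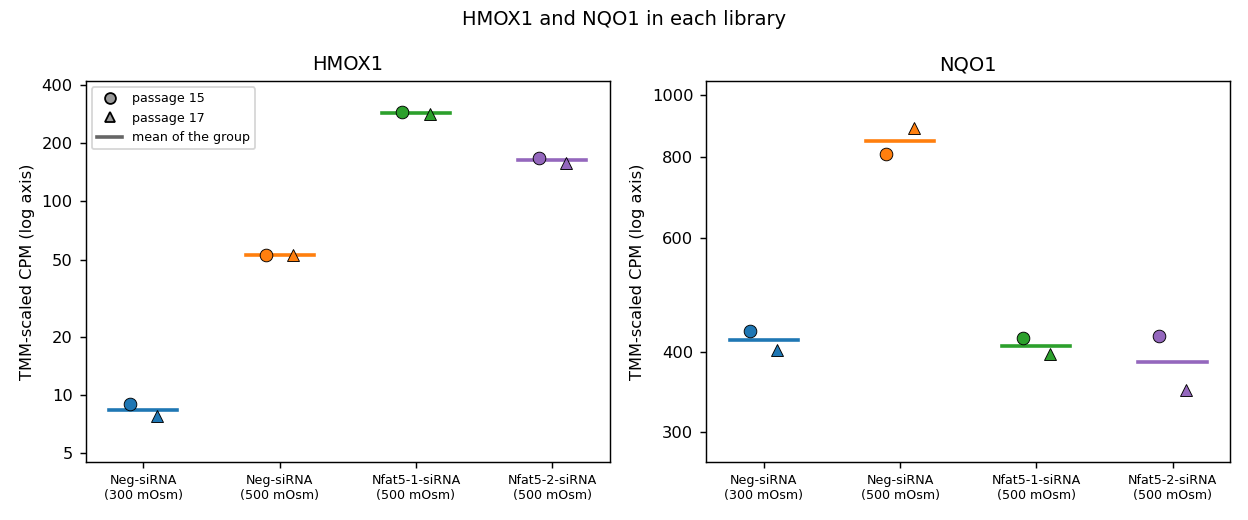
HMOX1 (left) and NQO1 (right) in each of the 8 libraries, as TMM-scaled CPM on a log axis, by group. Circles are passage 15, triangles passage 17 and lines group means, and HMOX1 climbs from 8.36 to 287 CPM without overlap between groups while NQO1 stands apart only in the hyperosmotic control, at 808 and 887 CPM.

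HMOX1 was 6.32-fold higher in the hyperosmotic control than in the isosmotic control, a log2 fold change of 2.66 with a standard error (SE) of 0.15 from the edgeR quasi-likelihood model. Within passages the ratio was 5.89 at passage 15 and 6.85 at passage 17. Against the hyperosmotic control, HMOX1 was 5.41-fold higher with Nfat5-1-siRNA, at a log2 difference of 2.44 (SE 0.14), and the within-passage ratios were 5.49 and 5.34. With Nfat5-2-siRNA it was 3.09-fold higher (log2 fold change 1.63, SE 0.14), with within-passage ratios of 3.19 and 2.99. These comparisons and those of NQO1 below share the hyperosmotic control libraries, so a deviation in those libraries would enter all of them.

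The hyperosmotic and the siRNA differences of HMOX1 stack in the same direction. Relative to the isosmotic control, HMOX1 was 34.2-fold higher with Nfat5-1-siRNA and 19.5-fold higher with Nfat5-2-siRNA. The further increase with the siRNAs, in log2 units, amounted to 91.6% and 61.2% of the increase that came with raffinose alone.

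Among the 9203 genes that averaged 10 CPM or more, the log2 fold change of HMOX1 was the 150th highest with hyperosmolality, the 16th highest with Nfat5-1-siRNA and the 123rd highest with Nfat5-2-siRNA. The median log2 fold change of those genes was 0.04, -0.02 and -0.12 in the same comparisons. HMOX1 thus stood far up the list in each of them, by the measure it was selected on.

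NQO1 (ENSCAFG00000020252) lies on chromosome 5 of CanFam3.1 from 79985474 to 79989648 on the forward strand, with 5 exons and 828 bases, none shared with another gene. The raw counts of replicates 1 and 2 were 19121 and 13595 in the isosmotic control, 29796 and 35425 in the hyperosmotic control, 19541 and 18630 in Nfat5-1-siRNA and 17750 and 14718 in Nfat5-2-siRNA.

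On the CPM scale NQO1 was at 430 and 402 in the isosmotic control and at 808 and 887 in the hyperosmotic control. It was at 420 and 396 CPM with Nfat5-1-siRNA and at 422 and 349 CPM with Nfat5-2-siRNA. The hyperosmotic control libraries were the highest at both passages, and the other 3 groups overlapped with each other. The group means were 416 ± 19.6 CPM in the isosmotic control, 848 ± 55.6 in the hyperosmotic control, 408 ± 16.5 with Nfat5-1-siRNA and 385.5 ± 52.18 with Nfat5-2-siRNA (SD, n = 2 each).

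NQO1 was 2.04-fold higher in the hyperosmotic control than in the isosmotic control (log2 fold change 1.03, SE 0.15), with ratios of 1.88 at passage 15 and 2.20 at passage 17. It was 2.08-fold below the hyperosmotic control with Nfat5-1-siRNA (log2 difference -1.05, SE 0.15), and with Nfat5-2-siRNA the difference was 2.20-fold, also downward (log2 -1.14, SE 0.15). The siRNA differences cancelled 103% and 111% of the log2 increase with raffinose. Relative to the isosmotic control, the log2 difference was -0.03 with Nfat5-1-siRNA (95% confidence interval -0.36 to 0.30) and -0.11 with Nfat5-2-siRNA (-0.44 to 0.22), so the intervals leave room for a difference from the isosmotic level in either direction.

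By the ranking used for HMOX1, NQO1 was the 1055th highest of 9203 genes with hyperosmolality. It was the 464th lowest with Nfat5-1-siRNA and the 538th lowest with Nfat5-2-siRNA. Its differences were moderate in size next to those of HMOX1.

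Of 9 housekeeping genes listed, only HPRT1, an enzyme of purine salvage, could be paired, and it moved in the same directions as NQO1. HPRT1 was at 88.5 and 118.4 CPM in the isosmotic control, 159 and 181 CPM in the hyperosmotic control, 74.1 and 62.5 CPM with Nfat5-1-siRNA and 56.35 and 53.9 CPM with Nfat5-2-siRNA. The hyperosmotic control was the highest group and the Nfat5-siRNA groups lay below both controls. HPRT1 rose by 0.72 on the log2 scale with hyperosmolality (SE 0.17, edgeR, adjusted p = 0.0429), beside 1.03 for NQO1. It fell by 1.32 with Nfat5-1-siRNA (SE 0.17, adjusted p = 0.00197) and by 1.63 with Nfat5-2-siRNA (SE 0.17, adjusted p = 0.000289), beside -1.05 and -1.14 for NQO1. The rise was lost on leaving out any 1 library other than isosmotic control replicate 2 (edgeR, adjusted p up to 0.845), and with filterByExpr or the 4 libraries compared (adjusted p up to 0.108). So was the fall with Nfat5-1-siRNA without its replicate 2 (adjusted p = 0.123). HPRT1 was paired only through the study's list of changed genes, so it is no unselected reference.

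**Figure D2:**
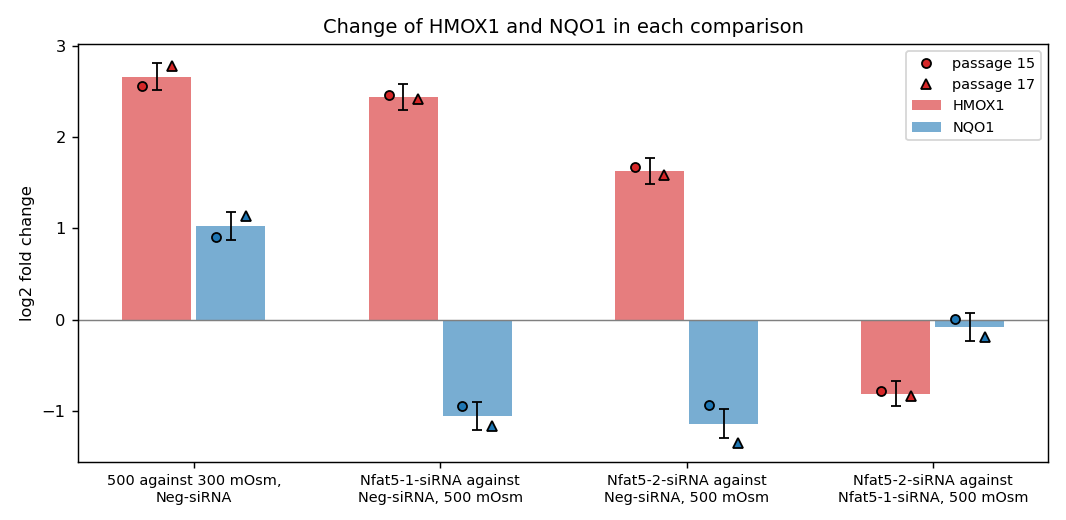
Log2 fold change of HMOX1 and NQO1 in the 4 comparisons. Bars are estimates from all 8 libraries with their SE, circles and triangles are the ratios within passage 15 and passage 17. HMOX1 is 2.66 and NQO1 1.03 for hyperosmolality, and with Nfat5-1-siRNA they are 2.44 and -1.05.

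The pattern by which HMOX1 was chosen, called higher in all 3 comparisons, was met by 31 of the 19835 genes tested, or 0.156%. That of NQO1, called higher in raffinose and lower with each Nfat5-siRNA, was met by 325, or 1.64%. With the passage as a replicate block the counts were 181 (0.913%) and 875 (4.41%), and in DESeq2 75 (0.378%) and 459 (2.31%). Leaving out 1 library lowered the first edgeR count to between 8 and 30 genes, with 8 without hyperosmotic control replicate 2 or Nfat5-1-siRNA replicate 2. It lowered the second to between 36 and 261, with 36 without Nfat5-1-siRNA replicate 2. Both counts fell by more than 1.5 times without any 1 hyperosmotic control or Nfat5-1-siRNA library or without Nfat5-2-siRNA replicate 2, and that of HMOX1 also without isosmotic control replicate 2. A gene counted here as called had an adjusted p under 0.05 in the edgeR test, with p-values adjusted by the Benjamini-Yekutieli method over all genes tested. The selection used these comparisons, and nothing follows from the membership of HMOX1 and NQO1 in these sets.

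The Nfat5-siRNAs were then compared with each other, where 0.0302% of the genes tested were called higher and 0.0101% lower with Nfat5-2-siRNA than with Nfat5-1-siRNA. HMOX1 was 1.75-fold lower with Nfat5-2-siRNA, a log2 difference of -0.81 (SE 0.14, 95% confidence interval -1.10 to -0.51), and the log2 difference was -0.78 at passage 15 and -0.84 at passage 17. This did not pass the threshold (edgeR, adjusted p = 0.155), whereas it did with the passage as a replicate block (edgeR, adjusted p = 7.42e-06). The difference ranked 80th from the lowest among the 9203 genes, whose median was -0.10. NQO1 differed by -0.08 on the log2 scale between the siRNAs (SE 0.15, 95% confidence interval -0.41 to 0.24, edgeR, adjusted p = 1). For NQO1 the interval allows a difference of either sign.

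Per kilobase of exon, NQO1 was the more abundant mRNA in every library, but by a very different margin. The ratio of NQO1 to HMOX1 in CPM per kilobase was 115 and 124.5 in the isosmotic control, 36.7 and 40.04 in the hyperosmotic control, 3.47 and 3.35 with Nfat5-1-siRNA and 6.01 and 5.27 with Nfat5-2-siRNA. No group overlapped with another. In mean CPM per kilobase, HMOX1 moved from rank 9615 of 19835 genes in the isosmotic control to rank 3938 in the hyperosmotic control, and to ranks 570 and 1072 with Nfat5-1-siRNA and Nfat5-2-siRNA. NQO1 was at ranks 172, 72, 121 and 126 in the same groups. These levels depend on the exons annotated for each gene, since reads outside them were not counted.

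Other oxidative defence genes were taken from a list of 115 genes of glutathione, thioredoxin, NADPH, haem, iron, quinone and peroxide metabolism and their regulators. Only 9 could be paired with an identifier, through the study's list. Their counts are therefore not independent evidence of a direction for the pathway. The thioredoxin and peroxiredoxin genes, the genes of haem breakdown and iron handling, and the regulators, NFE2L2, KEAP1, BACH1, MAFF, MAFG and MAFK included, had no paired member and were not analysed here.

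Of these 9 genes, 4 were called higher and 3 lower with hyperosmolality, where 11.3% of all genes tested were called higher and 9.23% lower. With Nfat5-1-siRNA 1 was called higher and 3 lower, beside 3.4% and 4.53% of all genes. With Nfat5-2-siRNA 1 was called higher and 7 lower, beside 4.67% and 7.38% of all genes. The median log2 fold change of the 9 genes was -0.55, -0.82 and -1.07 in these comparisons, and that of all genes tested was 0.00, -0.07 and -0.03. With the passage as a replicate block, 5 of the 9 were called lower with hyperosmolality and 8 with Nfat5-1-siRNA, where the block called 15.7% and 11.9% of all genes lower. The count of 7 lower with Nfat5-2-siRNA dropped to 3 without hyperosmotic control replicate 2 and to 4 without either Nfat5-2-siRNA replicate.

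Enzymes that supply NADPH, the electron donor of NQO1 and of the reductase that feeds haem oxygenase, were the best covered, with 4 of 9 paired. IDH1, the cytosolic NADP-dependent isocitrate dehydrogenase, was at 72.1 and 68.0 CPM in the isosmotic control, 746 and 687 CPM in the hyperosmotic control, 268.5 and 213 CPM with Nfat5-1-siRNA and 204 and 187 CPM with Nfat5-2-siRNA. It rose with hyperosmolality by 3.36 on the log2 scale (SE 0.17, edgeR, adjusted p = 3.62e-07), fell by 1.57 with Nfat5-1-siRNA (SE 0.16, adjusted p = 0.000396) and by 1.88 with Nfat5-2-siRNA (SE 0.16, adjusted p = 6.89e-05). IDH1 went in the same directions as NQO1, with the difference that its libraries under Nfat5-siRNA all lay above those of the isosmotic control. Each of these calls held when any 1 of the 8 libraries was left out.

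ME1, the cytosolic malic enzyme, was at 265 and 179 CPM in the isosmotic control, 1120 and 728 CPM in the hyperosmotic control, 408 and 274 CPM with Nfat5-1-siRNA and 271 and 200 CPM with Nfat5-2-siRNA. It rose by 2.06 (SE 0.26, edgeR, adjusted p = 0.000508) with hyperosmolality and fell by 1.44 (SE 0.26, adjusted p = 0.0191) and 1.97 (SE 0.26, adjusted p = 0.00164) on the log2 scale with the siRNAs. Passage 17 was the lower replicate in each group. The call with Nfat5-1-siRNA was lost without hyperosmotic control replicate 1 or either Nfat5-1-siRNA replicate (largest edgeR adjusted p = 0.559), and that with Nfat5-2-siRNA without its replicate 2 (adjusted p = 0.055). Between the siRNAs its log2 difference was -0.53 (edgeR, adjusted p = 1, and 0.0248 with the replicate block).

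The mitochondrial NADP-dependent enzyme IDH2 took another course. It was at 767 and 678 CPM in the isosmotic control, 313 and 341 CPM in the hyperosmotic control, 97.6 and 83.1 CPM with Nfat5-1-siRNA and 89.6 and 94.8 CPM with Nfat5-2-siRNA. It fell in all 3 comparisons, by 1.14, 1.86 and 1.83 on the log2 scale (SE 0.15 each, edgeR, largest adjusted p = 0.000592). The calls of IDH2 held when any 1 library was left out. TKT, the transketolase of the pentose phosphate pathway, had log2 fold changes of -0.55, -0.67 and -0.67 (SE 0.15 each) and passed in none (edgeR, adjusted p = 0.122, 0.0711 and 0.0543). With the replicate block TKT passed in all 3 (largest adjusted p = 0.00173).

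In haem metabolism, 1 of 9 synthesis genes was paired. ALAS1, which makes the first committed precursor of haem and so stands at the opposite end of the pathway from HMOX1, was at 154 and 93.5 CPM in the isosmotic control and at 75.6 and 52.4 CPM in the hyperosmotic control. It was at 203.5 and 221 CPM with Nfat5-1-siRNA and at 142 and 178 CPM with Nfat5-2-siRNA. ALAS1 rose with both siRNAs, by 1.73 (SE 0.23, edgeR, adjusted p = 0.00282) and 1.32 (SE 0.23, adjusted p = 0.0104) on the log2 scale, and was the paired gene called higher beside HMOX1. Its log2 fold change with hyperosmolality was -0.95 (SE 0.23, edgeR, adjusted p = 0.055, and 9.11e-08 with the replicate block), opposite in sign to that of HMOX1. Both siRNA calls of ALAS1 were lost without hyperosmotic control replicate 2 and without replicate 2 of the respective Nfat5-siRNA (edgeR, adjusted p up to 0.0959 for Nfat5-1-siRNA and 0.149 for Nfat5-2-siRNA).

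**Figure D3:**
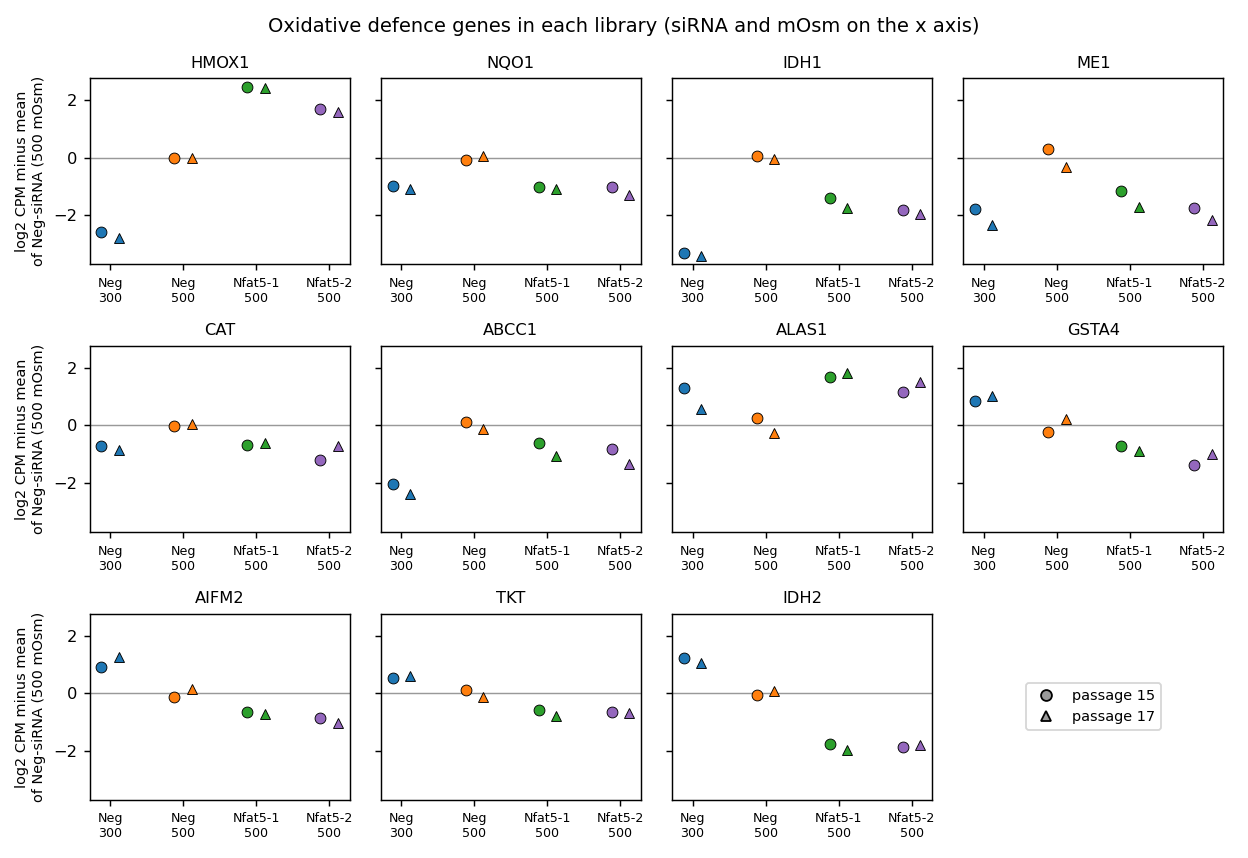
HMOX1, NQO1 and the 9 paired oxidative defence genes in each library, as log2 CPM minus the mean of the hyperosmotic control, by siRNA and osmolality, with circles for passage 15 and triangles for passage 17. IDH1, ME1, CAT and ABCC1 peak in the hyperosmotic control as NQO1 does, and ALAS1 stands with HMOX1 above the line under both Nfat5-siRNAs. IDH2 is lower in the hyperosmotic than in the isosmotic control, and lower again under both Nfat5-siRNAs.

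The quinone, carbonyl and efflux list had 2 of 16 genes paired. ABCC1, the exporter of glutathione conjugates, was at 25.5 and 20.3 CPM in the isosmotic control and 114 and 96.9 CPM in the hyperosmotic control, a rise of 2.20 on the log2 scale (SE 0.21, edgeR, adjusted p = 5.02e-05). It fell by 1.07 with Nfat5-2-siRNA (SE 0.21, adjusted p = 0.0205), and its log2 fold change with Nfat5-1-siRNA was -0.84 (SE 0.21, adjusted p = 0.118). AIFM2, which reduces ubiquinone at membranes with NADPH or NADH, fell by 1.09 with hyperosmolality (SE 0.17, edgeR, adjusted p = 0.00203) and by 0.95 with Nfat5-2-siRNA (SE 0.17, adjusted p = 0.0107), and stood at -0.68 with Nfat5-1-siRNA (adjusted p = 0.115). AIFM2, a quinone reductase like NQO1, therefore differed from it in sign with hyperosmolality. The calls with Nfat5-2-siRNA were lost without hyperosmotic control replicate 2 or Nfat5-2-siRNA replicate 2 for both genes, without hyperosmotic control replicate 1 for ABCC1 and without Nfat5-2-siRNA replicate 1 for AIFM2 (edgeR, largest adjusted p = 0.406 for ABCC1 and 0.286 for AIFM2).

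CAT, the catalase that breaks down hydrogen peroxide, was the paired gene of 10 in its list. It was at 273 and 248 CPM in the isosmotic control, 433 and 453 CPM in the hyperosmotic control, 279.3 and 290 CPM with Nfat5-1-siRNA and 193 and 270.5 CPM with Nfat5-2-siRNA. It rose by 0.77 with hyperosmolality (SE 0.17, edgeR, adjusted p = 0.0289) and fell by 0.93 with Nfat5-2-siRNA (SE 0.17, adjusted p = 0.0126), with -0.64 for Nfat5-1-siRNA (adjusted p = 0.167). GSTA4, a glutathione transferase for lipid peroxidation products and the paired gene of 21 in the glutathione list, fell by 0.93 with hyperosmolality (SE 0.19, edgeR, adjusted p = 0.0186) and by 1.19 with Nfat5-2-siRNA (SE 0.19, adjusted p = 0.00636), with -0.82 for Nfat5-1-siRNA (adjusted p = 0.0887). For ABCC1, AIFM2, CAT and GSTA4 the Nfat5-1-siRNA comparison passed with the replicate block (largest adjusted p = 0.000417). The CAT and GSTA4 calls rested on few libraries. That of CAT with hyperosmolality was lost on leaving out any 1 library except the Nfat5-2-siRNA replicates (edgeR, adjusted p up to 0.335), and that with Nfat5-2-siRNA without either hyperosmotic control replicate or Nfat5-2-siRNA replicate 1 (up to 0.182). Those of GSTA4 were lost without isosmotic control replicate 2, hyperosmotic control replicate 1 or Nfat5-1-siRNA replicate 2 for hyperosmolality (edgeR, adjusted p up to 0.211), and without hyperosmotic control replicate 2 or Nfat5-2-siRNA replicate 1 for Nfat5-2-siRNA (up to 0.176).

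The profiles of HMOX1 and NQO1 were also set beside those of other genes. Likeness was the Euclidean distance between log2 CPM profiles over the 8 libraries, each centred on its own mean, among the genes that averaged 10 CPM or more, 721 of which have a symbol. A distance of 0 means changes of the same shape and size, and the distance grows with the size of the changes as well as with a difference in shape. HMOX1 and NQO1 were 5.86 apart, with a Pearson r of -0.15 over the 8 libraries. Nothing on function follows from either measure, since all genes share the libraries.

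The named genes nearest to HMOX1 were DMXL2 at a distance of 1.12, DUSP4 at 1.735, KIF21A at 1.76, SMAD9 at 1.78 and ARSB at 1.88, with 6 genes of any kind closer than ARSB. DUSP4, a phosphatase that switches off MAP kinases, had group means of 54.4 ± 3.98, 182 ± 8.39, 611 ± 55.4 and 435 ± 92.1 CPM in the isosmotic control, the hyperosmotic control, Nfat5-1-siRNA and Nfat5-2-siRNA (SD, n = 2 each). DMXL2, a partner of the vesicular proton pump, had 1.63 ± 0.333, 8.515 ± 0.925, 29.8 ± 0.470 and 19.7 ± 1.83 CPM in the same groups. KIF21A is a kinesin, SMAD9 carries signals of bone morphogenetic proteins, and ARSB is a lysosomal sulfatase. All 5 had their lowest group mean in the isosmotic control, and in each the mean was higher with Nfat5-1-siRNA than with Nfat5-2-siRNA, as for HMOX1. For KIF21A, SMAD9 and ARSB these means differed by less than the larger SD. Within passages, KIF21A and SMAD9 were lower with Nfat5-2-siRNA at both, and ARSB only at passage 15.

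By this distance NQO1 had closer companions, but its changes were also smaller than those of HMOX1. Pearson r, which leaves the size of the changes out, did not set the genes apart. It was 0.960 to 0.996 for the 5 genes named beside HMOX1 and 0.967 to 0.991 for the 5 beside NQO1. ST6GALNAC4, a sialyltransferase, was at a distance of 0.247, XPNPEP1, a cytosolic aminopeptidase, at 0.299, DNAJB1, a co-chaperone of HSP70, at 0.321, ACBD4, which binds acyl-CoA, at 0.339 and PLCD3, a phospholipase C, at 0.3425. ST6GALNAC4 had group means of 151 ± 8.28, 331 ± 10.7, 160 ± 8.86 and 138 ± 1.65 CPM, and DNAJB1 of 104 ± 3.65, 177 ± 7.09, 99.5 ± 6.09 and 92.5 ± 8.63 CPM, in the order of groups used above (SD, n = 2 each). In all 5 the mean of the hyperosmotic control was the highest and the other 3 means lay close together.

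**Figure D4:**
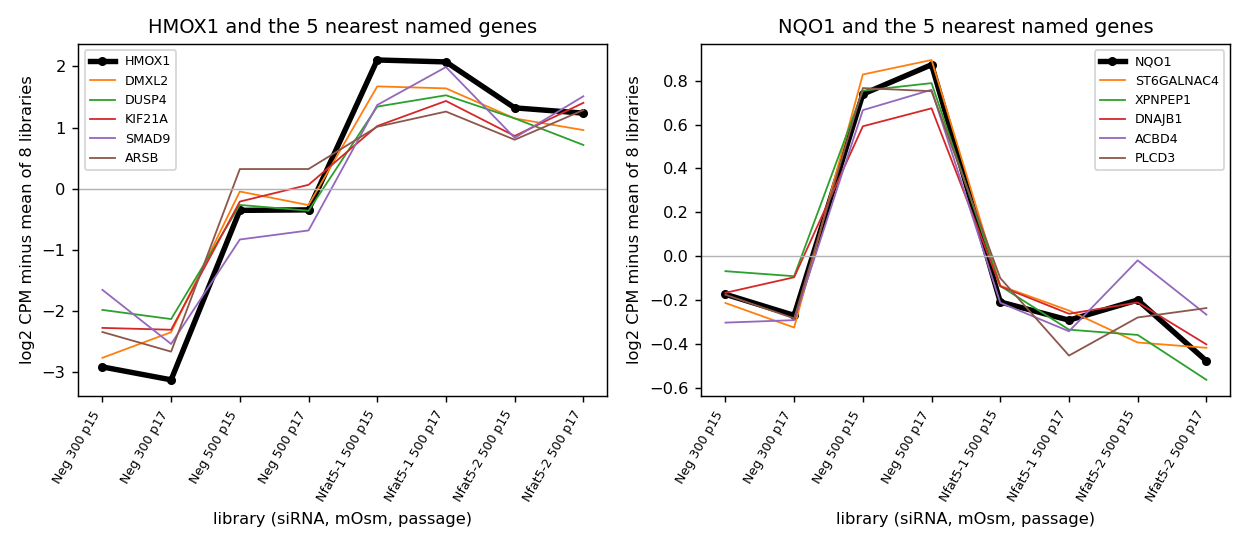
Log2 CPM minus the mean of the 8 libraries for HMOX1 with its 5 nearest named genes (left) and for NQO1 with its own (right), one line per gene and one position per library. HMOX1 (black) spans the widest range of its group, with DMXL2 nearest at a distance of 1.12, and the 5 genes beside NQO1 stay within a distance of 0.3425 of it.

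Genes around HMOX1 and NQO1 on the chromosome were examined for changes of the same kind. Within 500 kb of the start of HMOX1, 7 other genes were tested. Of these, 3 were called lower with hyperosmolality and 1 with Nfat5-2-siRNA, and 0 were called higher in any of the 3 comparisons (edgeR). Of all genes tested, 9.23% and 7.38% were called lower in those comparisons, and 11.3%, 3.4% and 4.67% higher with hyperosmolality, Nfat5-1-siRNA and Nfat5-2-siRNA. At an unadjusted p under 0.05, 1, 1 and 2 of the 7 were higher with hyperosmolality, Nfat5-1-siRNA and Nfat5-2-siRNA, beside 22.8%, 14.5% and 16.1% of all genes. At that limit 3, 2 and 2 were lower, beside 21%, 17.5% and 20.6%. In the same order DESeq2 called 1, 0 and 0 higher, beside 13%, 5.86% and 7.57% of all genes, and 3, 0 and 0 lower, beside 11.5%, 6.57% and 9.16%. With the replicate block 1, 0 and 1 were called higher, beside 17.3%, 9.61% and 10.7% of all genes, and 3, 1 and 2 lower, beside 15.7%, 11.9% and 15.3%. The medians of their log2 fold changes were -0.96, -0.09 and -0.16 in the same order, beside 0.00, -0.07 and -0.03 for all genes tested.

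The next gene downstream of HMOX1, ENSCAFG00000001709, is on the same strand, 4865 bases beyond its end. It was at 180.5 and 166 CPM in the isosmotic control, 205 and 155 CPM in the hyperosmotic control, 89.4 and 46.5 CPM with Nfat5-1-siRNA and 74.9 and 37.7 CPM with Nfat5-2-siRNA. It fell by 1.68 on the log2 scale with Nfat5-2-siRNA (SE 0.31, edgeR, adjusted p = 0.0163), and the log2 fold change with Nfat5-1-siRNA was -1.41 (SE 0.31, adjusted p = 0.0632). With the replicate block it passed for both siRNAs (largest adjusted p = 2.83e-15). The call with Nfat5-2-siRNA was lost in DESeq2 (adjusted p = 0.0563) and without either hyperosmotic control replicate or Nfat5-2-siRNA replicate 2 (edgeR, adjusted p up to 0.275). HMOX1 was higher in these same libraries.

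Around NQO1, 18 other genes were tested within 500 kb of its start. With hyperosmolality 2 were called higher and 0 lower in edgeR, and with each siRNA 1 was called higher and 1 lower. The shares of all genes called higher and lower were 11.3% and 9.23% with hyperosmolality, 3.4% and 4.53% with Nfat5-1-siRNA, and 4.67% and 7.38% with Nfat5-2-siRNA. For hyperosmolality, 10 were higher and 1 lower at an unadjusted p under 0.05, beside 22.8% and 21% of all genes. DESeq2 called 5 higher and 0 lower, beside 13% and 11.5%, and the replicate block called 8 higher and 1 lower, beside 17.3% and 15.7%. The medians of the 18 genes were 0.46, 0.25 and 0.34 in these comparisons, beside 0.00, -0.07 and -0.03 for all genes. ENSCAFG00000020251, on the same strand and 17448 bases before NQO1, rose by 0.71 (SE 0.14, edgeR, adjusted p = 0.0284) and 1.19 (SE 0.14, adjusted p = 0.000596) with the siRNAs, from 38.7 and 37.7 CPM in the hyperosmotic control to 65.0 and 60.3 CPM with Nfat5-1-siRNA and 85.7 and 89.0 CPM with Nfat5-2-siRNA. ENSCAFG00000033447, 5704 bases before NQO1 on the opposite strand, fell by 1.65 with Nfat5-1-siRNA (SE 0.33, edgeR, adjusted p = 0.0353) and had a log2 fold change of -1.01 with Nfat5-2-siRNA (adjusted p = 0.365, and 1.13e-06 with the replicate block). Its log2 fold change with hyperosmolality was 1.04 (SE 0.32, edgeR, adjusted p = 0.236, and 2.06e-07 with the replicate block). The gene called lower with Nfat5-2-siRNA starts 476147 bases downstream of NQO1's start and fell by 1.29 on the log2 scale (SE 0.23, edgeR, adjusted p = 0.0118). It rose by 1.15 with hyperosmolality (SE 0.23, edgeR, adjusted p = 0.0151) and had a log2 fold change of -0.63 with Nfat5-1-siRNA (adjusted p = 0.694). Both calls with Nfat5-1-siRNA were lost on leaving out any 1 of the hyperosmotic control or Nfat5-1-siRNA libraries (edgeR, adjusted p up to 0.353 for ENSCAFG00000020251 and 0.5305 for ENSCAFG00000033447).

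The gene beyond the end of NQO1, ENSCAFG00000020254, lies on the opposite strand from 80003598 to 80115099, with 13949 bases between them. It was at 21.8 and 23.65 CPM in the isosmotic control, 85.9 and 78.5 CPM in the hyperosmotic control, 103.6 and 88.1 CPM with Nfat5-1-siRNA and 72.2 and 73.55 CPM with Nfat5-2-siRNA. It rose with hyperosmolality by 1.85 on the log2 scale (SE 0.15, edgeR, adjusted p = 1.07e-05), as NQO1 did. With the siRNAs its log2 fold changes were 0.22 and -0.17 (SE 0.14 each, edgeR, adjusted p = 1 for both), beside -1.05 and -1.14 for NQO1. In RefSeq's gene order for the dog assembly UU_Cfam_GSD_1.0 the protein-coding genes on either side of NQO1 are NOB1 and NFAT5, and those beside HMOX1 are MCM5 and TOM1. No source used here pairs these symbols with the identifiers of the count table, so none of the neighbouring values is given under a symbol.

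**Figure D5:**
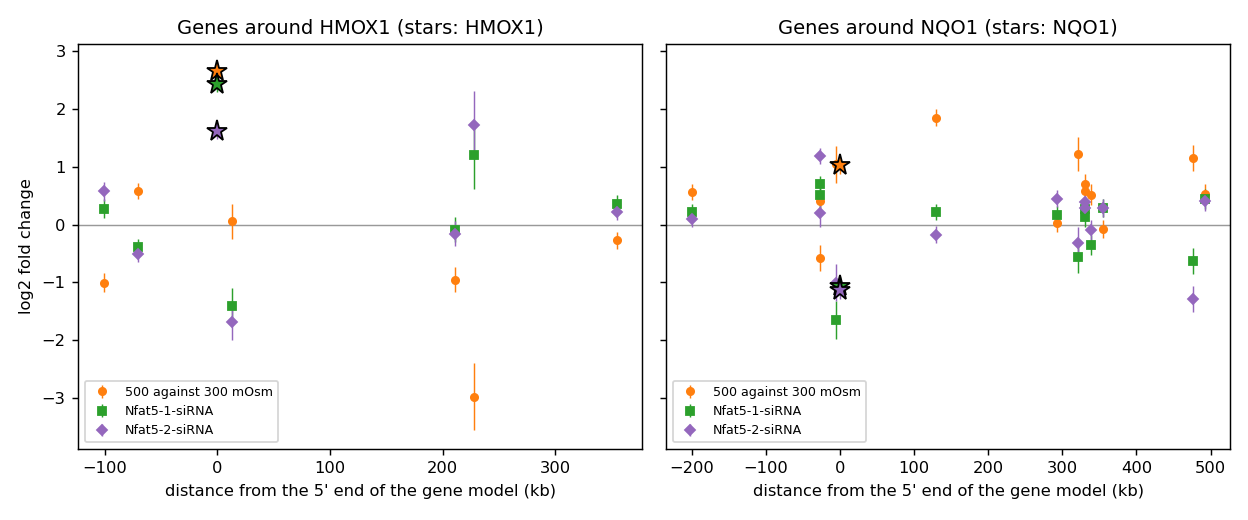
Log2 fold change with its SE against the distance between gene starts in kb, for genes averaging 1 CPM or more within 500 kb of HMOX1 (left, 6 genes) and NQO1 (right, 13 genes), with positive distances downstream. Stars mark HMOX1 and NQO1. For hyperosmolality no neighbour of HMOX1 rose near its 2.66, one averaging 1.046 CPM was at -2.98, and the gene at 1.85 beside NQO1 is ENSCAFG00000020254.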

How the data were processed

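Per the labels and the study's methods, the authors prepared polyA RNA libraries (NEBNext Ultra II), aligned reads with HISAT2 2.0.5 and counted them per Ensembl gene of CanFam3.1 with featureCounts 1.5.1. The deposited values are raw counts, and exon coordinates and gene length stood in the same table. Whether counting used strand is not given in the sources used here.

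Counts were fitted with edgeR 4.0.16 (TMM, glmQLFit and glmQLFTest) on all 8 libraries, for genes whose counts summed to 5 or more, with Benjamini-Yekutieli adjustment and a threshold of 0.05, following the filter and adjustment of the study, which used DESeq2. The SE was the log2 fold change divided by the root of the F statistic. The script was tested on simulated data. Alternatives were DESeq2 1.42.0, its size factors in edgeR, Benjamini-Hochberg adjustment, no filter, filterByExpr, the 4 libraries compared alone, a replicate block and leaving out each library. Replicate numbers mark the passage in the labels, and passage differences correlated between groups with r from 0.123 to 0.465 over 12424 genes, so the numbers pair the samples. Libraries of a group differ in passage. The main fit leaves the pairing out, and its p-values measure that spread. The replicate block takes out the passage difference that the groups share, so its p-values measure only the spread that remains.

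HMOX1 and NQO1, the lists and the tests were chosen with earlier results of these data known. Named genes were HMOX1, NQO1, their neighbours, paired genes of the fixed lists, and the 5 nearest genes with a symbol to each. RefSeq's table (43286 genes) held 0 of the Ensembl identifiers, and symbols came from the study's list of 989 genes, of which 860 have one. No sequence is shown.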

Additional observations from a re-analysis of the deposited data

How the results depend on the processing

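HMOX1 and NQO1 kept the direction of their hyperosmotic and siRNA differences under every alternative run. The HMOX1 log2 fold changes with the siRNAs moved by more than the replicate SD where the fit held only the 4 libraries compared. They were then 2.50 with Nfat5-1-siRNA and 1.70 with Nfat5-2-siRNA. They moved likewise without isosmotic control replicate 1 or either hyperosmotic control replicate, to at most 2.50 and 1.73. NQO1 moved by more than that SD without hyperosmotic control replicate 2, to 0.905 for hyperosmolality and -0.93 with Nfat5-1-siRNA. Leaving out each library gave HMOX1 values of 2.56 to 2.72 for hyperosmolality, 2.42 to 2.50 with Nfat5-1-siRNA and 1.58 to 1.73 with Nfat5-2-siRNA, and NQO1 values of 0.905 to 1.03, -1.10 to -0.93 and -1.28 to -0.97.

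The lower HMOX1 level with Nfat5-2-siRNA than with Nfat5-1-siRNA passed the threshold with Benjamini-Hochberg adjustment (-0.81 log2), with no filter (-0.81), with the replicate block (-0.81) and in DESeq2 (-0.78). It did not with DESeq2's size factors, filterByExpr or the 4 libraries compared. Leaving out each library gave -0.852 to -0.766, and the adjusted p over all alternatives was between 7.42e-06 and 1. For NQO1 the same range was -0.227 to 0.0497, the last without Nfat5-2-siRNA replicate 2, and no alternative passed.

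Of the 9 listed genes, 5 were called lower with hyperosmolality with Benjamini-Hochberg adjustment, the replicate block or DESeq2, and 8 with Nfat5-1-siRNA under these and with no filter. With Nfat5-2-siRNA 4 were called lower in the fit of 4 libraries. Leaving out each library gave 3 to 4 higher and 2 to 3 lower with hyperosmolality, 0 to 1 and 2 to 3 with Nfat5-1-siRNA, and 0 to 1 and 3 to 7 with Nfat5-2-siRNA. ENSCAFG00000001709 changed sign for hyperosmolality without Neg-siRNA (300 mOsm) replicate 2 (-0.0031) or Neg-siRNA (500 mOsm) replicate 1 (-0.2196), in a range of -0.2196 to 0.1925. Over 75 comparisons of 25 other genes, namely the 9 listed genes, the 10 nearest by profile and 6 close neighbours averaging 1 CPM or more, the replicate block added 18 calls and ended 0. DESeq2 added 12 and ended 1, its size factors in edgeR added 2 and ended 1, and the fit of 4 libraries added 1 and ended 4. Benjamini-Hochberg adjustment added 17 and no filter 14, and filterByExpr ended 3. Leaving out any 1 library ended some calls, and for some libraries it added others.

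Over all genes, the replicate block called 3441 higher and 3124 lower with hyperosmolality against 2246 and 1831, 1906 and 2358 with Nfat5-1-siRNA against 674 and 898, and 2124 and 3044 with Nfat5-2-siRNA against 926 and 1464. Alternatives other than leaving out a library spanned 1918 to 3709 and 1550 to 3324, 541 to 1906 and 712 to 2358, and 732 to 2207 and 833 to 3044. Between the siRNAs, 6 and 2 genes became 474 and 505 with the block, and 118 and 70 in DESeq2. The count was 0 in edgeR with filterByExpr, where 2737 genes had an unadjusted p under 0.05, and in edgeR on 4 libraries, where 2702 did. The pattern of HMOX1 held 23 to 181 genes and that of NQO1 254 to 875 under alternatives other than leaving out a library. Leaving out each library gave 8 to 30 and 36 to 261 genes in these patterns, and over all genes 1393 to 2262 higher and 991 to 1895 lower with hyperosmolality, 67 to 834 and 92 to 912 with Nfat5-1-siRNA (lowest without its replicate 2), 405 to 1178 and 549 to 1304 with Nfat5-2-siRNA (lowest without hyperosmotic control replicate 2), and 0 to 32 and 0 to 6 between the siRNAs. The cause of these changes was not tested. With 2 libraries a group, the spread rests on few degrees of freedom, which limits every adjusted p.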
